A study of Bos indicus with 9 samples.

Results

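Solute carriers are the membrane proteins that move amino acids, sugars, metals, ions, nucleotides and vitamins across cell membranes, and their gene symbols start with SLC. The 175 solute carrier genes described here are those whose single symbol in the array's probe table starts with SLC and a digit, without the glucose and lactate carriers SLC2A1, SLC2A3, SLC16A1 and SLC16A3. They came from 42 families and were 175 of 9141 genes measured. Where a gene had several probe sets, the one with the highest mean over the 9 arrays stood for it, which applied to 49 of the 175. They were measured in the corpus luteum, the gland that an ovulated follicle turns into and that secretes progesterone, of crossbred Nelore cows (Bos indicus) aged 2 to 5 years. Each of 3 groups held 3 cows with 1 Affymetrix bovine array per cow. All cows were synchronised with progesterone devices and estradiol benzoate, and their corpora lutea were taken at slaughter on day 6 after ovulation. Control cows had no further treatment. In the stimulated group the cows were given equine chorionic gonadotropin (eCG), 400 IU on day 8 of the protocol, and in the superovulated group 2000 IU on day 4. This gonadotropin from pregnant mares binds the receptors of both ovarian gonadotropins in cattle. Dose and day of eCG changed together, so their parts in any difference between treated groups cannot be told apart. Signals are read as log2 values, and those of different probe sets are not ranked against each other.

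Some carriers exchange 1 substrate for another, some follow a sodium or proton gradient, and some work as pairs of a heavy and a light chain. Zinc shows how families divide the work: SLC39 proteins bring zinc into the cytosol from outside or from organelles, and SLC30 proteins move it out of the cytosol. The SLC25 family sits in the inner mitochondrial membrane and carries adenine nucleotides, phosphate, citrate, acylcarnitines and cofactors. Luteal steroid cells are rich in mitochondria, where cholesterol is first converted toward progesterone.

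The mean signal of 9 luteal steroidogenic genes was 12.08 to 12.49 on the 9 arrays and overlapped between groups. This level does not by itself identify the tissue, since signals of different probe sets are not ranked against each other. Markers of some other cells differed between the groups. The mean signals of the T and NK cell, endothelial, pericyte and smooth muscle, fibroblast, erythrocyte and epithelial lists overlapped in every comparison. Over 14 of 16 listed macrophage and myeloid genes the mean signal was 4.85 to 5.81 in control, 6.31 to 7.30 in stimulated and 5.97 to 6.97 in superovulated cows, so both treated groups lay above control. Over 7 of 9 neutrophil genes it was 5.11 to 5.84 in control, 4.01 to 4.64 in stimulated and 5.30 to 5.97 in superovulated cows. In stimulated against control the widest values of that list were S100A9 at -3.57 and S100A8 at -2.39. The list median was -1.3, and 1 of the 7 genes was positive. Over 7 granulosa genes the mean signal was 6.95 to 7.17, 7.54 to 7.83 and 6.91 to 7.44 in the same group order. It was higher in stimulated cows than in either other group. FST had the widest value of that list in stimulated against control, 2.62, beside a list median of 0.31. In that comparison 2 of the 7 genes were negative. The difference between the 3 prime and 5 prime control probe sets of cyclophilin, a sign of RNA integrity, was 0.14 to 0.18 in control, 0.24 to 0.32 in stimulated and 0.23 to 0.31 in superovulated cows. Of the 5 other such pairs, GAPDH was higher in stimulated than in control cows, eIF-4E higher in superovulated than in control, and glutathione S-transferase higher in superovulated than in both other groups (by 0.34 and 0.35), each without overlap there. EEF1A1 and actin overlapped in every comparison. The part of these shifts in the carrier values below was not tested. In whole tissue, fewer cells of a type and less RNA per cell cannot be told apart.

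None of the 175 carriers passed an adjusted p under 0.05 in limma in any comparison. Adjusted p-values are those of limma with Benjamini-Hochberg adjustment over all 23961 probe sets, and they apply throughout. The background was as sparse: among all probe sets 0.0% passed as higher and 0.00417% as lower in stimulated against control. Among all probe sets 0.0% passed in either direction in superovulated against control. In superovulated against stimulated 0.00417% passed as higher and 0.0% as lower. The smallest adjusted p of a carrier was 0.355 in stimulated against control, 0.64 in superovulated against control and 0.304 in superovulated against stimulated. In the moderated F test for any difference 0 of 175 passed, beside 0.00417% of all probe sets. An unadjusted F-test p under 0.05 was found for 12 carriers and for 7.52% of all genes.

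By nominal p, meaning an unadjusted limma p under 0.05, 8 carriers were higher and 4 lower in stimulated than in control cows, beside 4.2% and 3.06% of all genes. The counts without control replicate 2 were 5 and 10, without control replicate 3 there were 4 higher, and without stimulated replicate 3 there were 8 lower. In superovulated against control the counts were 4 higher and 4 lower, beside 3.13% and 2.14%. Higher counts were 2 without control replicate 2 and 9, 7 and 8 without superovulated replicates 1, 2 and 3. Lower counts were 2 and 7 without control replicates 1 and 2 and 8 without superovulated replicate 3. In superovulated against stimulated they were 15 higher and 4 lower, beside 4.89% and 4.2%. Of the carriers these counts are 4.57% and 2.29%, then 2.29% and 2.29%, then 8.57% and 2.29%. The 15 were above the share of all genes and the 4 lower ones between the treated groups below it, and neither gap was tested. The count of 15 was 8 in a fit of only the 6 arrays compared, and also 8 without stimulated replicate 1, stimulated replicate 3 or superovulated replicate 2. Groups did not overlap for 10 higher and 13 lower carriers in stimulated against control, beside 6.5% and 6.36% of all genes. In superovulated against control there were 16 higher and 8 lower, beside 5.51% and 4.08%, and between the treated groups 15 and 6, beside 7.17% and 5.77%. The carriers as a whole had median log2 fold changes of -0.03, 0.01 and 0.02 beside 0.00, 0.01 and 0.01 over all genes. Carriers were positive in 42.3%, 50.9% and 60.0% of cases, against 49.1%, 53.3% and 53.2% of all genes. The median within-group SD of the carriers was 0.15, beside 0.18 over all genes. The 95% confidence interval of the fold change excluded a 2-fold change in either direction for 157, 154 and 153 carriers in the 3 comparisons. The share over all genes was not computed. Of the 175, 89 lay below the median mean signal of all probe sets. In the dimmest 25% lay 46, where small signals limit what a difference or a narrow interval can show.

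**Figure D1:**
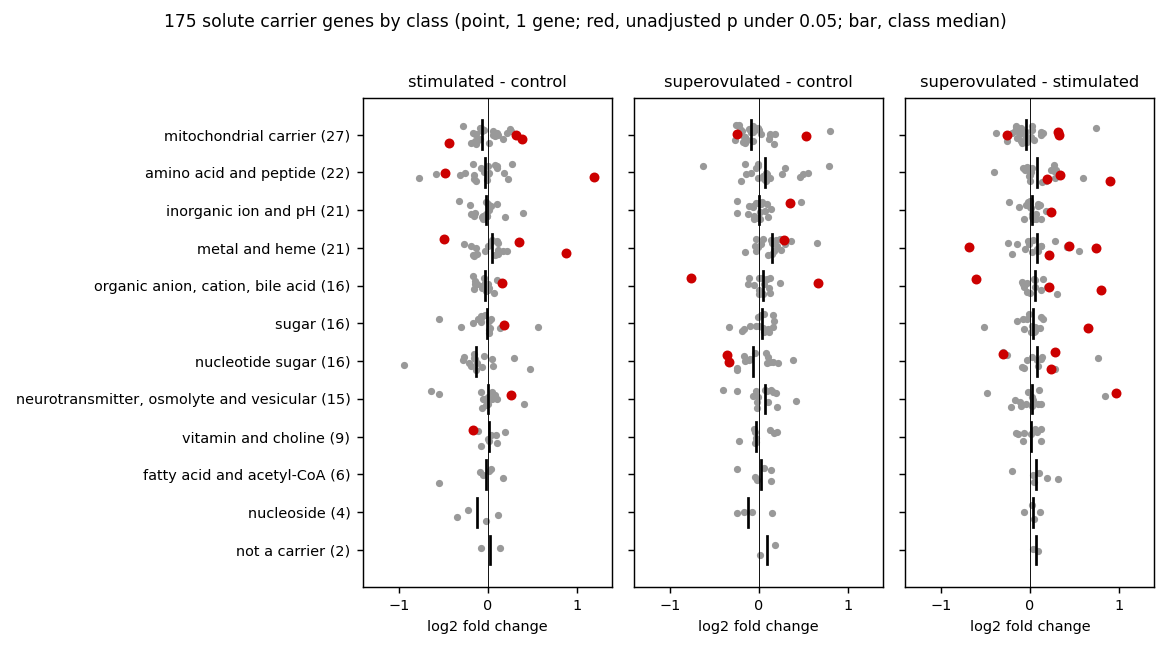
Log2 fold change of each of the 175 genes (x axis) by class of carrier (y axis, number of genes in brackets), 1 panel per comparison. Red points have an unadjusted p under 0.05 and bars mark class medians. The class medians lie close to 0, and the widest single value is SLC7A7 at 1.19 in stimulated against control.

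The smallest p of any carrier in stimulated against control was that of SLC39A14. SLC39A14, a zinc importer that also carries manganese and iron not bound to transferrin, had signals of 10.97, 10.71 and 10.54 in control, 11.88, 11.54 and 11.43 in stimulated and 10.86, 10.97 and 10.97 in superovulated cows. All 3 stimulated cows lay above all 6 others, while control and superovulated cows overlapped. The log2 fold change was 0.88 in stimulated against control (SE 0.14, limma adjusted p = 0.355) and -0.68 in superovulated against stimulated (SE 0.14, limma adjusted p = 0.328). Superovulated against control gave 0.19 (95% confidence interval -0.14 to 0.53). Left out in turn, single cows moved the first value between 0.75 and 1.0.

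SLC30A6, a member of the SLC30 family, had the opposite order. Its signals were 8.93, 9.13 and 8.93 in control, 8.44, 8.75 and 8.33 in stimulated and 9.27, 9.04 and 9.44 in superovulated cows. The stimulated cows again stood apart, here below all 6 others. Their difference from control was -0.49 (SE 0.14, limma adjusted p = 0.645), and superovulated cows exceeded stimulated ones by 0.74 (SE 0.14, limma adjusted p = 0.304), the smallest adjusted p among the carriers. Against control the superovulated value was 0.25 (95% confidence interval -0.08 to 0.58).

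SLC30A1 exports zinc across the plasma membrane, and its transcription is known to respond to zinc through the factor MTF1. Signals were 4.34, 4.11 and 4.39 in control, 4.13, 4.03 and 4.21 in stimulated and 4.66, 4.44 and 4.58 in superovulated cows. Superovulated cows were above all 6 others, and control and stimulated cows overlapped. Log2 fold changes were 0.28 against control (SE 0.10, limma adjusted p = 0.797) and 0.44 against stimulated (SE 0.10, limma adjusted p = 0.345).

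Of the 3 measured zinc-binding metallothioneins, MT1A and MT2A had wider differences on the same arrays and MT3 did not. MT1A had signals of 10.02, 8.93 and 12.20 in control, 7.51, 7.98 and 5.99 in stimulated and 10.93, 10.65 and 9.08 in superovulated cows. MT2A had 8.00, 7.81 and 9.19, then 7.09, 7.28 and 5.93, then 9.32, 9.67 and 7.30. For both of these genes every stimulated cow lay below all 6 others, though the cows within a group spread by over 1 log2 unit. The MT1A difference was -3.22 against control (SE 0.91, limma adjusted p = 0.644) and 3.06 for superovulated against stimulated (SE 0.91, limma adjusted p = 0.422). For MT2A the values were -1.56 and 1.99 (limma adjusted p = 0.78 and 0.454). MT3 had -0.14, -0.04 and 0.10 in the 3 comparisons and overlapped in each. Metallothionein copies are near-identical, so a probe set may read more than the gene it names.

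Among iron genes, TFRC, the transferrin receptor that takes up iron, had signals of 5.06, 5.00 and 5.20 in control, 4.84, 4.17 and 4.01 in stimulated and 5.44, 5.51 and 5.87 in superovulated cows. No groups overlapped: stimulated cows were lowest and superovulated cows highest. Its differences were -0.74 in stimulated against control (SE 0.22, limma adjusted p = 0.645), 0.52 in superovulated against control (SE 0.22, limma adjusted p = 0.801) and 1.26 between the treated groups (SE 0.22, limma adjusted p = 0.272). NCOA4, which delivers ferritin for breakdown, had 0.28 in stimulated against control. STEAP3, a ferric reductase, had 0.45 in superovulated against stimulated. TF, which encodes transferrin, had -0.85 in superovulated against control, where the groups overlapped, and -0.84 against stimulated, where they did not. FBXL5, an iron sensor that directs the degradation of iron regulatory protein, had -0.18 in superovulated against control. The ferritin genes FTH1 and FTL, which encode the iron store of the cell, overlapped in every comparison. NCOA4, TF, FBXL5, FTH1 and FTL did not share the order of TFRC. Without control replicate 2 NCOA4 was 0.15, without stimulated replicate 3 STEAP3 was 0.26, and without control replicate 1 TF against control was -0.56.

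**Figure D2:**
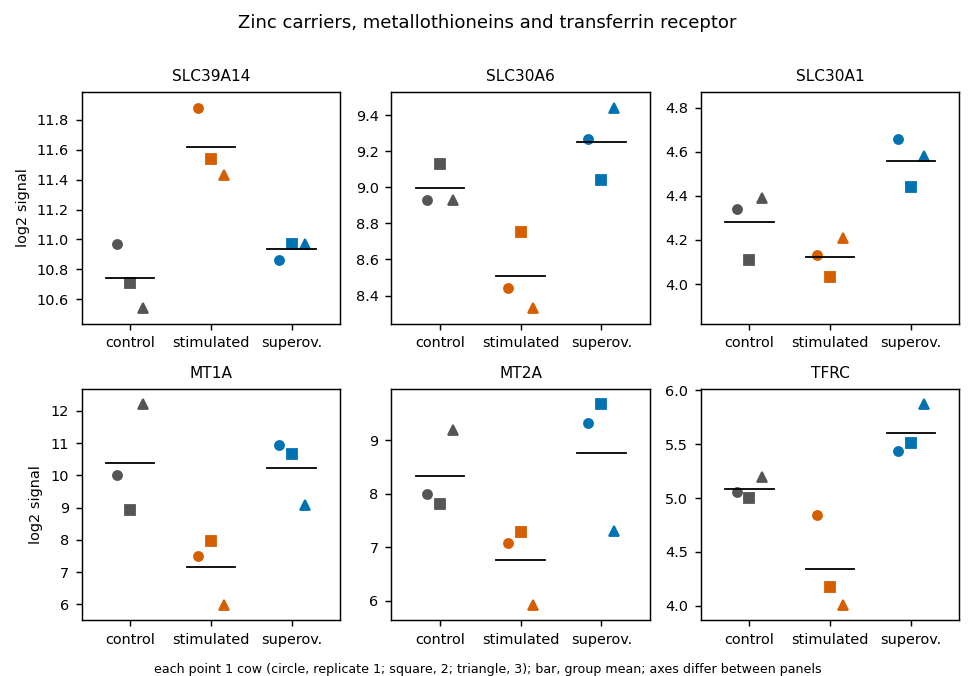
Log2 signal (y axis) of 3 zinc carriers and 3 metal-handling genes in each cow by group (x axis); points are cows, marker shapes are replicate numbers and bars are group means. Stimulated cows lie above all others for SLC39A14 and below all others for SLC30A6, MT1A, MT2A and TFRC.

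Over the list of 17 of 27 metal-handling partner genes measured, 0 passed in any comparison. By nominal p, 1 was higher and 2 lower in stimulated against control, 1 higher and 2 lower in superovulated against control, and 4 higher and 1 lower between the treated groups. Over all genes the shares were 4.2% and 3.06%, 3.13% and 2.14%, and 4.89% and 4.2%, and these also stand behind the counts of the lists that follow. Median log2 fold changes were -0.10, 0.02 and 0.10, and in stimulated against control 14 of the 17 were negative, where 49.1% of all genes were positive. The values of MT1A and MT2A lay far from that median.

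The metal and heme class held 21 carriers, all of the metal carrier families SLC11, SLC30, SLC31 and SLC39. Their median log2 fold change was 0.05 in stimulated against control, 0.15 in superovulated against control and 0.08 between the treated groups. By nominal p 2, 1 and 3 were higher and 1, 0 and 1 lower. The 13 measured SLC39 importers were above 0 in 76.9% of cases in stimulated and 84.6% in superovulated against control, beside 49.1% and 53.3% of all genes, a difference that was not tested. Their medians were 0.08 and 0.15, and by nominal p 2 and 0 of the 13 were higher. SLC39A2, another zinc importer in the dimmest 25% of probe sets, had 0.35 in stimulated against control (SE 0.10, limma adjusted p = 0.645), with no overlap. SLC39A5 had 0.21 in superovulated against stimulated. By contrast the copper importer SLC31A1 overlapped in every comparison, at 11.63 to 12.22 over the 9 cows. So did the brightest SLC39A6 probe set, at 11.65 to 11.86, where the interval excluded changes beyond 0.22 in either direction in all 3 comparisons. A second SLC39A6 probe set, at 8.91 to 9.92, also overlapped but was less precise. It gave -0.19, 0.14 and 0.33 with an SE of 0.21.

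Iron carriers included SLC11A2, the divalent metal transporter that releases iron from endosomes, with signals of 7.72, 7.49 and 6.37 in control, 7.16, 7.15 and 6.89 in stimulated and 7.16, 6.70 and 8.60 in superovulated cows. Its within-group SD of 0.71 exceeded every difference between groups. The mitochondrial iron importers SLC25A37 and SLC25A28 lay at 7.52 to 7.98 and at 10.35 to 10.87, and the second of them had 0.32 in stimulated against control with overlapping groups. The iron exporter SLC40A1 was not analysed here.

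Among mitochondrial carriers SLC25A51, which brings NAD into mitochondria, had the smallest p. Signals were 6.53, 6.38 and 6.53 in control, 6.98, 6.99 and 6.62 in stimulated and 7.02, 6.98 and 7.04 in superovulated cows. Both treated groups lay above all 3 controls and overlapped each other. The log2 fold change was 0.38 in stimulated (SE 0.11, limma adjusted p = 0.645) and 0.53 in superovulated cows (SE 0.11, limma adjusted p = 0.64). Their 95% confidence intervals were 0.13 to 0.63 and 0.28 to 0.78. These 2 comparisons share the control cows.

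The adenine nucleotide translocases SLC25A4, SLC25A5 and SLC25A6 exchange ATP made in mitochondria for cytosolic ADP, and their probe sets differed in sign. The brightest SLC25A5 probe set had 12.14, 12.51 and 12.42 in control, 12.03, 11.86 and 11.89 in stimulated and 12.09, 12.34 and 12.32 in superovulated cows. Stimulated cows lay below all 6 others, at -0.43 against control (SE 0.12, limma adjusted p = 0.596) and with 0.33 for superovulated over stimulated (limma adjusted p = 0.464). A second SLC25A5 probe set had the opposite sign against control, 0.70 with an SE of 0.50, and single cows from 9.83 to 12.28. With the mean of both probe sets the stimulated difference turned to 0.13.

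SLC25A6 had 3 probe sets with different orders. The brightest had 13.66 to 13.99 over all cows and a superovulated difference of -0.09 from control. Another had 10.62, 10.65 and 10.68 in control, 10.57, 10.63 and 10.75 in stimulated and 10.38, 10.38 and 10.27 in superovulated cows. This probe set gave -0.30 for superovulated against control (SE 0.07, limma adjusted p = 0.663), with no overlap. The third had 9.89, 9.80 and 9.75, then 9.83, 9.76 and 9.75, then 9.99, 10.06 and 10.08, with superovulated cows highest. It gave 0.23 (SE 0.06, limma adjusted p = 0.728). Which part of the transcript each probe set reads was not examined. SLC25A4 had 1 probe set, at 11.59 to 11.95, and overlapped in every comparison. Over all carriers with several probe sets, no probe sets of a gene had opposite signs in 31, 25 and 24 of the 49 genes in the 3 comparisons. A change too small to survive rounding was counted as neither sign. The share over all genes with several probe sets was not computed.

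**Figure D3:**
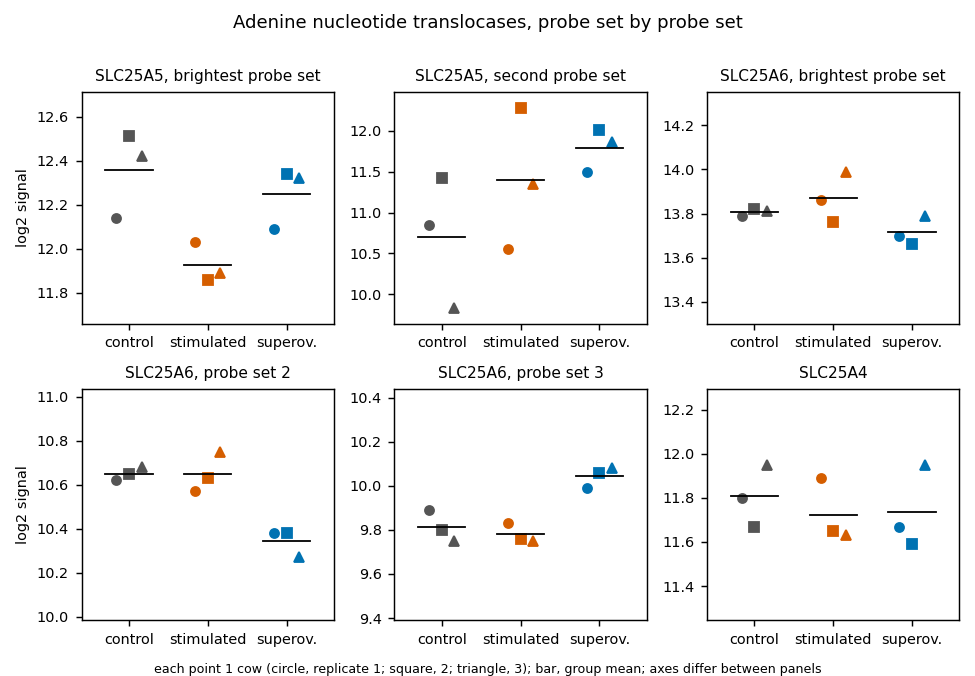
Log2 signal (y axis) of every probe set of the adenine nucleotide translocases in each cow by group (x axis); points are cows and bars are group means. The 2 SLC25A5 probe sets order the groups differently, and of the 2 dimmer SLC25A6 probe sets 1 is lowest and 1 highest in superovulated cows.

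Over the 27 carriers of the SLC25 family the median log2 fold change was -0.06, -0.09 and -0.04 in the 3 comparisons, and 19 of 27 were negative in superovulated against control, where 53.3% of all genes were positive. By nominal p, 2 were higher and 1 lower in stimulated against control. The same counts were 1 and 1 in superovulated against control, and 2 and 1 between the treated groups. SLC25A20, which brings acylcarnitines in for fatty acid oxidation, had 9.45, 9.36 and 9.67 in control, 9.33, 9.21 and 9.44 in stimulated and 9.29, 9.27 and 9.29 in superovulated cows. All superovulated cows were below all controls, at -0.21 (SE 0.10, limma adjusted p = 0.809), and a second probe set gave -0.20. SLC25A44, which carries branched-chain amino acids, had -0.24 in the same comparison, with overlapping groups.

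The phosphate carrier SLC25A3 lay at 13.74 to 13.95 and the citrate carrier SLC25A1 at 11.24 to 12.08, both overlapping in every comparison. For SLC25A3 the interval in stimulated against control was -0.28 to 0.07. SLC25A15, the ornithine carrier, had 3.69, 3.82 and 5.16 in superovulated cows and 3.22 to 3.67 in the other groups. Its difference from control of 0.80 (SE 0.36, limma adjusted p = 0.809) was 0.34 without superovulated replicate 3. SLC25A17, a peroxisomal member of the family, had 0.32 in superovulated against stimulated. SLC25A21, which carries oxodicarboxylates, had -0.26 in that comparison, and SLC25A38, the glycine carrier of heme synthesis, had -0.38.

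The 14 of 18 genes for import of carrier proteins into mitochondria gave 0 passing genes and medians of -0.03, -0.06 and -0.03. By nominal p, 1 was lower in stimulated against control, TIMM13, a chaperone of the intermembrane space, at -0.25 (SE 0.09, limma adjusted p = 0.727). No other gene of the list reached that level in any comparison. TIMM8B had -0.18 in stimulated against control and 0.16 between the treated groups, while TIMM8A had -0.12 there. TOMM5 had the widest value, -1.03 in superovulated against control, with overlapping groups, an SE of 0.51 and values of -0.58 without control replicate 1 and -0.60 without superovulated replicate 2.

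Of the 22 amino acid and peptide carriers, 1 was higher and 1 lower by nominal p in stimulated against control, 0 in superovulated against control, and 3 higher and 0 lower between the treated groups. Medians were -0.02, 0.07 and 0.08. SLC7A5, the light chain of the leucine exchanger, had signals of 6.50, 6.75 and 6.30 in control, 5.75, 6.09 and 6.27 in stimulated and 6.20, 6.29 and 6.46 in superovulated cows. Stimulated cows lay below controls, at -0.48 (SE 0.16, limma adjusted p = 0.705), and the nearest cows of the groups were 6.27 and 6.30. Its heavy chain SLC3A2 had 7.64, 7.08 and 7.28, then 7.26, 7.54 and 8.02, then 8.23, 7.64 and 7.78. The heavy chain overlapped between stimulated and control cows, and its widest value was 0.55 in superovulated against control (SE 0.24, limma adjusted p = 0.807), both groups holding a cow at 7.64.

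Glutamine and related carriers differed in how well they were measured. The brightest probe set of SLC38A2, a sodium-coupled carrier induced by amino acid shortage, lay at 13.19 to 13.62 over the 9 cows. Its intervals excluded changes beyond 0.30 in all 3 comparisons. A much dimmer second SLC38A2 probe set, at 3.22 to 4.41, overlapped in every comparison and was less precise, with an SE of 0.27. SLC1A5 had 5.95, 6.60 and 5.73 in control, 5.70, 5.85 and 5.79 in stimulated and 6.46, 7.17 and 5.51 in superovulated cows. Those groups overlapped throughout, and the within-group SD of 0.55 left an interval of -0.32 to 1.52 between the treated groups. SLC38A11 had 3.08, 3.40 and 3.17, then 2.64, 2.26 and 2.46, then 2.49, 4.14 and 3.41. It was lower in all stimulated cows than in controls (-0.77, limma adjusted p = 0.784), and superovulated against stimulated gave 0.90 with overlap (limma adjusted p = 0.498) and 0.50 without superovulated replicate 2.

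Lysosomal exporters differed among themselves. SLC66A1, which releases cationic amino acids, had -0.58 in stimulated against control, with overlap, and -0.63 in superovulated against control, without overlap (limma adjusted p = 0.82 and 0.81). The first value was -0.34 without stimulated replicate 2 and -0.91 without stimulated replicate 3. SLC38A7, which releases glutamine, had -0.26 in stimulated against control and 0.34 between the treated groups (limma adjusted p = 0.823 and 0.494). The glutamate carrier SLC1A1 had 0.19 between the treated groups. SLC7A11, the cystine carrier, was not analysed here.

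Partner genes of amino acid supply had their widest values between the treated groups. Of 20 of 23 genes of the amino acid response list 0 passed, and by nominal p the counts were 0 higher and 1 lower, 0 and 0, and 2 higher and 1 lower in the 3 comparisons. SHMT2, a mitochondrial enzyme of serine and folate metabolism, had 8.71, 8.66 and 9.04 in control, 8.33, 8.30 and 8.62 in stimulated and 8.95, 9.07 and 9.0 in superovulated cows. Stimulated cows were below all others, with -0.38 against control (limma adjusted p = 0.704) and 0.59 between the treated groups (SE 0.13, limma adjusted p = 0.328). MTHFD2, the next enzyme of that pathway, had 8.39, 8.70 and 8.72, then 7.75, 8.26 and 8.13, then 9.67, 8.73 and 8.84. Its values were -0.55 against control (limma adjusted p = 0.784), 0.47 in superovulated against control and 1.03 between the treated groups (SE 0.26, limma adjusted p = 0.366), and no groups overlapped. Without superovulated replicate 1 the superovulated value against control was 0.18. TRIB3, a pseudokinase of the response, had -0.26 in stimulated against control. EIF4EBP1, a translation repressor, had -0.43 in superovulated against control and -0.53 against stimulated.

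In the mTORC1 amino acid sensing list, 16 of 21 genes were measured and 0 passed. At an unadjusted p under 0.05 the counts were 1 higher and 0 lower, 0 and 1, and 0 and 2. RRAGC, a GTPase that brings mTORC1 to lysosomes, had 10.02, 9.77 and 9.89 in control, 10.21, 10.17 and 10.28 in stimulated and 9.90, 10.12 and 9.96 in superovulated cows. Stimulated cows were above all others, by 0.33 against control (SE 0.09, limma adjusted p = 0.608). TSC1, part of the complex that restrains mTORC1, had 4.79, 4.21 and 4.61, then 4.21, 3.94 and 4.58, then 3.78, 3.79 and 3.83. Superovulated cows were below all others, at -0.74 against control (SE 0.19, limma adjusted p = 0.72) and -0.44 against stimulated, the latter -0.27 without stimulated replicate 3. SESN1, a leucine sensor family member, had 0.55 in stimulated against control and 0.35 without control replicate 3. LAMTOR3 had 0.21 in superovulated against control and 0.10 without superovulated replicate 3.

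SLC7A7, the light chain of the cationic amino acid exchanger that macrophages express, had the widest difference of any carrier. Signals were 3.90, 4.88 and 3.75 in control, 4.68, 6.18 and 5.24 in stimulated and 4.52, 5.13 and 5.26 in superovulated cows. Control replicate 2 overlapped both treated groups. The log2 fold change was 1.19 in stimulated (SE 0.44, limma adjusted p = 0.727) and 0.79 in superovulated cows (limma adjusted p = 0.832), and without stimulated replicate 2 the first was 0.78. The myeloid marker mean was 5.60, 5.81 and 4.85 in control, 6.31, 7.30 and 6.83 in stimulated and 5.99, 6.97 and 5.97 in superovulated cows. In stimulated and control cows the highest SLC7A7 signal fell in the cow with the highest myeloid mean. In superovulated cows it fell in replicate 3, the cow with the lowest myeloid mean of that group. The part of myeloid cells in the SLC7A7 difference was not tested.

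SLC11A1, the metal transporter of macrophage and neutrophil phagosomes, had 4.86, 6.45 and 6.03 in control, 4.65, 6.98 and 6.03 in stimulated and 6.03, 7.11 and 6.17 in superovulated cows. Replicate 2 was highest in each group for both SLC11A1 and the myeloid mean. Groups overlapped, and the within-group SD of 0.89 was the largest of the 175 carriers, against a median of 0.15. Unlike the myeloid mean, SLC11A1 did not separate stimulated from control cows.

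**Figure D4:**
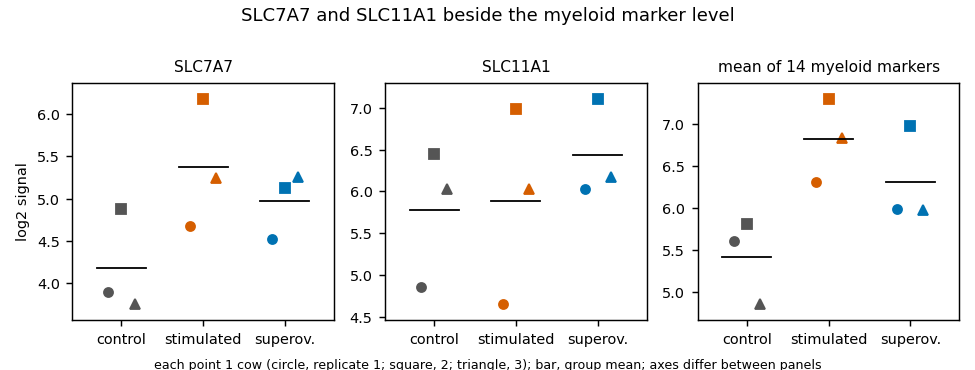
Log2 signal (y axis) of SLC7A7 and SLC11A1 and the mean log2 signal of 14 myeloid marker genes in each cow by group (x axis); points are cows, shapes are replicate numbers and bars are group means. The square, replicate 2, is the highest point of each group for SLC11A1 and for the markers.

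Among organic ion carriers SLC22A5, the sodium-coupled importer of carnitine, had the smallest p. Its signals were 7.76, 7.78 and 8.32 in control, 8.13, 7.59 and 7.68 in stimulated and 7.39, 6.99 and 7.20 in superovulated cows. Superovulated cows lay below all 6 others, at -0.76 against control (SE 0.20, limma adjusted p = 0.72) and -0.61 against stimulated (SE 0.20, limma adjusted p = 0.45). A much dimmer second probe set, at 2.93 to 3.28, overlapped in every comparison. SLC22A5 and SLC25A20 act in sequence in carnitine use, and both were lowest on average in superovulated cows. Between the treated groups, however, SLC25A20 had only -0.04, with overlap. A link between these genes was not tested. The dicarboxylate carrier SLC13A3 had 3.01, 3.10 and 3.41 in control, 3.11, 3.09 and 2.91 in stimulated and 3.72, 3.36 and 4.44 in superovulated cows. It gave 0.67 against control, with overlap and 0.37 without superovulated replicate 3, and 0.80 against stimulated, without overlap (limma adjusted p = 0.801 and 0.439) and 0.50 without that cow. The dim sulphate carrier SLC13A4 had 0.21 in the latter comparison, and its other probe sets, also dim, had -0.01 and 0.06. SLC22A18 had 0.16 and 0.13 in stimulated and superovulated against control, both without overlap. The medians of the 16 members were -0.03, 0.05 and 0.05.

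Nucleotide sugar carriers of the SLC35 family supply the Golgi with activated sugars for glycosylation. Their 16 members had medians of -0.14, -0.07 and 0.09, with 12 of 16 negative in stimulated against control, where 49.1% of all genes were positive. SLC35A2, which carries UDP-galactose, had 8.90, 8.59 and 8.73 in control, 8.49, 8.21 and 8.65 in stimulated and 8.37, 8.37 and 8.40 in superovulated cows. Superovulated cows were below all controls, at -0.36 (SE 0.12, limma adjusted p = 0.797), and stimulated cows had -0.28 with overlap, or -0.16 without stimulated replicate 2. A dimmer second SLC35A2 probe set overlapped in both comparisons, at 0.06 for superovulated and -0.03 for stimulated cows. SLC35A5 had 10.86, 10.96 and 11.08, then 11.02, 10.92 and 10.85, then 10.66, 10.82 and 10.41, with superovulated cows lowest. It gave -0.34 against control (SE 0.11, limma adjusted p = 0.797) and -0.30 against stimulated, the latter -0.19 without superovulated replicate 3. Its 3 other probe sets overlapped in both comparisons. SLC35A3, which carries UDP-N-acetylglucosamine, and SLC35F6 had 0.24 and 0.28 in superovulated against stimulated, with overlap.

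**Figure D5:**
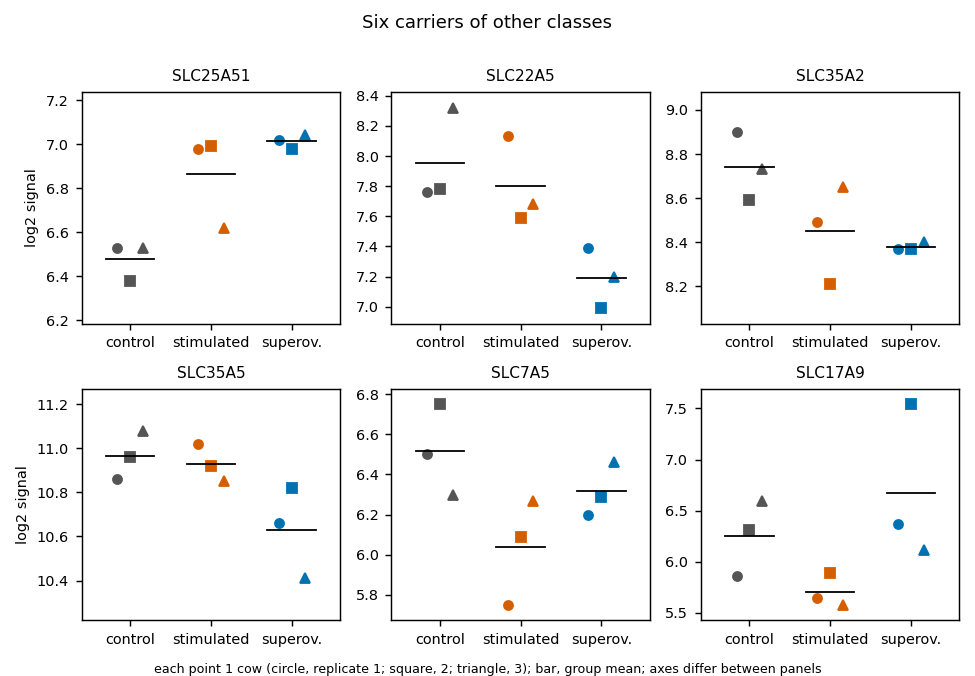
Log2 signal (y axis) of SLC25A51, SLC22A5, SLC35A2, SLC35A5, SLC7A5 and SLC17A9 in each cow by group (x axis); points are cows and bars are group means. Treated cows lie above controls for SLC25A51, and superovulated cows lie below controls for SLC22A5, SLC35A2 and SLC35A5.

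The 15 neurotransmitter, osmolyte and vesicular carriers had medians of 0.00, 0.07 and 0.02, and 8 of them were in the dimmest 25%. SLC17A9, which fills vesicles with nucleotides, had 5.86, 6.31 and 6.59 in control, 5.65, 5.89 and 5.58 in stimulated and 6.37, 7.54 and 6.12 in superovulated cows. Superovulated exceeded stimulated cows by 0.97 (SE 0.36, limma adjusted p = 0.475), with no overlap, and by 0.54 without superovulated replicate 2. SLC17A5, the lysosomal exporter of sialic acid, had 10.92, 11.88 and 12.04, then 10.83, 11.17 and 10.92, then 11.22, 11.64 and 12.60, chosen after its values were seen. Its difference between the treated groups was 0.85 (limma adjusted p = 0.549), with no overlap, and 0.46 without superovulated replicate 3. SLC6A15, a neutral amino acid carrier, had 0.26 in stimulated against control, and a second probe set had -0.04. The taurine carrier SLC6A6, at 2.56 to 3.01, overlapped in every comparison.

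Sugar carriers gave medians of -0.01, 0.04 and 0.04 over 16 members, 7 of them in the dimmest 25%. SLC2A6, a glucose transporter, had 6.01, 6.03 and 6.17 in control, 5.40, 5.23 and 5.93 in stimulated and 5.93, 5.87 and 6.71 in superovulated cows. It was lower in all stimulated cows than in controls, at -0.55 (SE 0.25, limma adjusted p = 0.784), and superovulated against stimulated gave 0.65 with overlap (limma adjusted p = 0.492) and 0.38 without superovulated replicate 3. The inositol carrier SLC5A11 had 4.35, 3.41 and 3.83, then 4.65, 4.20 and 4.45, then 4.03, 3.62 and 4.13. Stimulated cows exceeded superovulated ones, at -0.51 for superovulated against stimulated, and gave 0.57 against control with overlap, or 0.34 without control replicate 2. SLC5A5, the iodide carrier of the same family and also dim, had 0.18 and 0.12 in stimulated and superovulated against control, both without overlap.

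The 21 inorganic ion carriers, 8 of them in the dimmest 25%, had medians of -0.02, 0.00 and 0.02. SLC12A4, a potassium and chloride cotransporter, had 0.35 in superovulated against control (SE 0.14, limma adjusted p = 0.801), with overlap. The anion exchanger SLC4A3 had 0.24 between the treated groups. SLC20A1, a phosphate importer, overlapped throughout at 8.44 to 9.17. Of 13 listed sodium pump subunits, regulators and transporter chaperones 8 were measured, and 0 passed. At an unadjusted p under 0.05 the counts were 0 higher and 1 lower, 0 and 1, and 2 and 0. FXYD1, a regulator of the pump, had -0.82 in each treated group against control, and FXYD5, another, had -0.76 in stimulated against control and 0.95 between the treated groups, all with overlap. FXYD2 had 0.23 between the treated groups and FXYD6 had 0.24 in superovulated against control.

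In the remaining classes SLC19A1, the reduced folate carrier, had 3.18, 3.05 and 3.09 in control, 2.96, 2.90 and 2.97 in stimulated and 3.06, 3.05 and 3.07 in superovulated cows. Stimulated cows were below all others, at -0.16 against control (SE 0.06, limma adjusted p = 0.717), at a low signal. The 9 vitamin and choline carriers had medians of 0.02, -0.03 and 0.01. The 6 fatty acid and acetyl-CoA carriers had -0.01, 0.02 and 0.07, and SLC27A1, a fatty acid transporter, overlapped at 3.42 to 4.08. Of the 4 nucleoside carriers SLC29A1, which equilibrates adenosine and other nucleosides, had 9.68, 10.22 and 10.70 in control, 10.35, 9.13 and 10.06 in stimulated and 9.83, 10.09 and 9.95 in superovulated cows, which overlapped. Finally, 2 genes with an SLC symbol, SLC4A1AP and SLC7A6OS, do not encode carriers. SLC4A1AP and the brightest SLC7A6OS probe set overlapped in every comparison, at 8.77 to 9.29 and 9.35 to 9.62. A second SLC7A6OS probe set had -0.31 in superovulated against control, without overlap (limma adjusted p = 0.823). It had -0.39 against stimulated, with overlap (limma adjusted p = 0.506).

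Some carriers differed more between cows of a group than between groups. The within-group SD ran from 0.03 to 0.89, with a median of 0.15 beside 0.18 over all genes. It exceeded 0.50 for 12 carriers, and the share of all genes above 0.50 was not computed. Beside SLC11A1, the widest were SLC35G2 at 0.87, SLC26A11 at 0.83, SLC11A2 at 0.71 and the glutamate carrier SLC1A3 at 0.67, of which SLC35G2, SLC26A11 and SLC1A3 were chosen after their values were seen. SLC35G2 had 6.13, 7.57 and 8.36 in control, 6.15, 6.98 and 6.11 in stimulated and 6.26, 7.36 and 7.94 in superovulated cows, so its groups overlapped. SLC1A3 had 5.77 and 5.74 in superovulated replicates 1 and 2 and 3.80 in replicate 3.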

How the data were processed

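Each cow's luteal RNA went to 1 array as biotin-labelled cRNA, per the labels. The values as deposited follow no standard unit (other), because the decimal mark of every number is missing. The mark was restored from the digits, with 16 as the largest log2 value a scanner can give. Runs open to 2 readings made up 15.5% of cells. They touched 25 carriers, among them SLC39A14, SLC25A5, SLC25A6 and SLC35A5, whose 9 values were all read as 1x.x, at a posterior probability of 0.95. Over all probe sets 1.43 wrong readings were expected. The restored values, 0.85 to 15.36, are read as log2 signals. The sources used here state neither log base nor probe summarisation nor normalisation. Array medians were 4.19 to 4.26, and no normalisation was added. Arrays of 1 group correlated at 0.987 to 0.994 and arrays of different groups at 0.986 to 0.994. Arrays carry no read depth, and their number limits the precision.

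Of 246 carrier probe sets 243 were tested, and 167 of 175 symbols stood in the RefSeq table of assembly NIAB-ARS_B.indTharparkar_mat_pri_1.0. All 23961 probe sets were fitted with limma 3.58.1 (R 4.3.3) on 9 arrays with 1 mean per group, 2-sided, with Benjamini-Hochberg adjustment and a threshold of 0.05. In the same steps on simulated data for stimulated against control, 72 of 100 probe sets changed by log2 1 and 87 of 100 changed by log2 2 were called. The simulated probe sets varied independently, and more of them passed than in the data, where 0.0% passed as higher in this comparison. Benjamini-Hochberg adjustment is then more lenient, so these rates do not carry over to the data. P-values set each difference between groups against the spread within groups. With 1 array per cow, that spread holds animal and technical variation together. Exact permutation tests of 3 against 3 cannot go below 0.1, so none is printed.

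The members, classes, partner and marker lists were chosen with earlier results of these data known. Named are carriers with the 6 smallest p in each direction and comparison, the 3 smallest F-test p per class, the 10 highest means, a fixed list of known carriers, and the 2 partner genes per list and comparison with the smallest p. Further carriers with an unadjusted p under 0.05, and MT2A, NCOA4, STEAP3 and SLC66A1 in further comparisons, were added after their values were seen. Alternatives were another normalisation or centring, other probe set choices, the 6 arrays compared, a replicate block, a trended prior and leaving out each cow. Whether replicate numbers pair the cows was checked by correlating deviations from group means. Same-numbered stimulated and superovulated cows correlated at 0.202, 0.38 and 0.154. With control cows 1 pair in each comparison stayed under 0.1, at -0.031 with stimulated and 0.083 with superovulated. Different numbers gave -0.354 to 0.257. The criterion of over 0.1 in every pair was met only between the treated groups. However, control replicate 1 and superovulated replicate 3, with different numbers, reached 0.257, above 0.202 and 0.154. The check therefore cannot decide whether the numbers pair the cows, and no label read here says what a number shares.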

Additional observations from a re-analysis of the deposited data

How the results depend on the processing

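Across the 17 alternatives 0 carriers passed an adjusted p under 0.05 in any comparison or in the F test, as in limma on all arrays, so this result did not change. Of 97 differences of single genes printed, 96 kept their sign under every alternative run. The exception was SLC25A5 in stimulated against control, at 0.13 with the mean of both probe sets, where the second probe set has the opposite sign. None passed the threshold under any alternative. Leaving out a single cow moved 35 of the 97 by over 1.5 times. Genes whose probe sets all have open digit runs, such as SLC39A14 and SLC25A6, have no value with only probe sets free of such runs. Counts of carriers by unadjusted p under 0.05 moved more. In stimulated against control the 8 higher were 5 with median centring and 3 without the dimmest probe sets, where fewer genes are tested. The 4 lower were 7 with quantile normalisation and 8 with only the 6 arrays compared. In superovulated against control the 4 higher were 7 with a trended prior, and the 4 lower were 2 with that prior and 2 with the mean of all probe sets. In superovulated against stimulated the 15 higher were 8 with the 6 arrays compared, and the 4 lower were 2 with the mean of all probe sets. Leaving out each cow gave 4 to 11 higher and 3 to 10 lower in stimulated against control, 2 to 9 and 2 to 8 in superovulated against control, and 8 to 17 higher between the treated groups. The cause of these shifts was not tested. With the replicate number as a block, the counts were 10 lower in stimulated against control, 7 lower in superovulated against control and 19 in the F test, against 4, 4 and 12 without it. In superovulated against stimulated the block gave 15 higher and 5 lower, against 15 and 4. With 3 cows a group and no detection calls, small changes of dim carriers could not be seen.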
